A study of Mus musculus with 4 samples.

Results

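Mammalian Hox genes encode homeodomain proteins and lie in 4 clusters, Hoxa to Hoxd. Each gene whose mouse symbol is Hox with a cluster letter and a paralog number was taken as a member, which gave 39 genes among the 37620 gene IDs counted. There were 11 genes in Hoxa on chromosome 6, 10 in Hoxb on chromosome 11, 9 in Hoxc on chromosome 15 and 9 in Hoxd on chromosome 2. Hoxa3 is held by 2 overlapping IDs, of which 1 had 0 counts in every library, so that the 39 genes correspond to 40 IDs. Of the 39 genes, 28 are in the filtered table of the authors and 11 are not, and the raw counts of all of them are used here.

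The RNA came from R1 mouse embryonic stem cells (ESCs) of strain 129/Sv, either wild-type (WT) or knocked out for Cripto (Cripto KO), a co-receptor of the growth factor Nodal that acts in early embryonic patterning. WT and Cripto KO cells were grown in serum/LIF, which keeps ESCs self-renewing, or were moved to N2B27 medium with bFGF and Activin A at 20 ng/ml (F/A) for 6 days, a culture that drives ESCs towards epiblast stem cells (EpiSCs). There was 1 library for each of the 4 conditions. The study worked with more than 1 independent Cripto KO clone and the labels do not say which was sequenced. All values below compare libraries, with no replicate and no test of the conditions.

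Hox proteins are transcription factors that give cells their position along the body axis. In each cluster the genes lie in the order of their paralog number, and in the embryo the genes with low numbers are switched on earlier and further to the front than those with high numbers, a relation known as colinearity. Genes with the same number in different clusters are paralogs that arose by duplication of an ancestral cluster. In ESCs the clusters are known to be covered by Polycomb repression, and Wnt, Fgf and retinoic acid signals and the Cdx factors are known to open them as the embryo forms mesoderm and a posterior axis.

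Members of the family differ in coding sequence even where the protein is most conserved. To show how far the transcripts can be told apart by reads, 33 bases of coding sequence from the recognition helix of the homeodomain are given for a gene with a low, a middle and a high number in Hoxb and for the last gene of Hoxc (NCBIM37 transcripts). Capitals mark bases that differ from Hoxb4.
Hoxb1: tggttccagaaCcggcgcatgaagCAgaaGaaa
Hoxb4: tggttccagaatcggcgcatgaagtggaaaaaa
Hoxb9: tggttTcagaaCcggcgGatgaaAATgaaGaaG
Hoxc13: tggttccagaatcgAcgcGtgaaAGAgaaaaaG
Relative to Hoxb4, 4 bases differ in Hoxb1, 8 in Hoxb9 and 6 in Hoxc13. Over the whole homeobox of 180 bases, the identity between genes of the same paralog group ran from 67.2% to 93.9% over 41 pairs, with a median of 80.6%, and that between other pairs had a median of 60.6%. Windows of 50 bases that occur exactly in another Hox gene made up more than 1% of the transcripts of only 6 of the 39 genes. These were Hoxa2 with Hoxa3, Hoxb7 with Hoxb8 and Hoxd3 with Hoxd4, neighbours whose annotated exons overlap, and the highest share among the other genes was 0.178%. Exons of 18 genes overlap those of another gene on either strand, which covers 53.5% of the exon length of the counted Hoxa3 ID and 67.4% of that of Hoxd4, and whether the counting used the strand is not stated. Counts of genes with 20.4% or more of their exon length in such overlaps (Hoxa3, Hoxa7, Hoxa11, Hoxb2, Hoxb3, Hoxb7, Hoxb8, Hoxd3 and Hoxd4), and of Hoxa2 with its shared windows, are therefore less certain.

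RefSeq (GRCm38.p6) gave a promoter for 22 of the genes, 24 in all, and the 250 bases upstream of each start were searched on both strands. The letters TTTATNG, which Cdx factors bind, were found in 2 of the 24 promoters (8.33%) and in 9.81% of 32851 promoters of all genes. Cdx2 and Cdx4 were both called higher in Cripto KO F/A, but whether Cdx factors act at Hox promoters was not tested. The stretches with these letters are shown with the matches in capitals (Hoxb8 on the plus strand of chr11:96281686-96281821, Hoxd4 on the plus strand of chr2:74721913-74721959).
Hoxb8: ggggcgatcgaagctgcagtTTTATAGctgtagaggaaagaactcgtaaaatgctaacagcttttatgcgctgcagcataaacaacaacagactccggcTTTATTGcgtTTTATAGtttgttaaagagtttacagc
Hoxd4: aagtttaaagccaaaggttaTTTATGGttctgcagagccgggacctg
The Hoxb8 promoter held 3 matches and that of Hoxd4 held 1, all on the strand of the gene. TGATTNAT, the letters bound by a Hox protein together with Pbx, was in 2 of the 24 (8.33%, against 2.82% of all promoters), in Hoxa2 and Hoxd11. TATAAA was in 4 (16.7%, against 12.4%), and its matches in Hoxb8 lie on the other strand within TTTATAG. The median number of CG dinucleotides was 12.5 in the Hox promoters and 6 in all promoters.

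The library totals were 17315442 counts for WT serum/LIF, 16260578 for Cripto KO serum/LIF, 15230856 for WT F/A and 15740587 for Cripto KO F/A. Tdgf1, the gene of Cripto, had 18714 counts in WT serum/LIF, 945 in Cripto KO serum/LIF, 1572 in WT F/A and 86 in Cripto KO F/A, and was thus low in both libraries labelled Cripto KO. In Cripto KO F/A, 3 of 18700 genes with counts had an odd count and every Hox count was even, so these counts were divided by 2 for each interval. A count of 3, or of 6 in Cripto KO F/A, was taken as the detection limit. A gene was tested in a comparison when it was above the limit in at least 1 of the 2 libraries, and called when its level, in cpm (counts scaled to a library total of 1000000), differed at least 2-fold and the 95% counting interval of the ratio lay on the same side of 1. Intervals cover counting error only. In bulk RNA, fewer cells of a type and less RNA per cell cannot be told apart.

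Above the limit were 21 of the 39 genes in WT serum/LIF, 21 in Cripto KO serum/LIF, 18 in WT F/A and 28 in Cripto KO F/A. Of the 39, 36 were above it in at least 1 library and 10 in all 4. The remaining 3 were Hoxa6 (1, 2, 0 and 6 counts in WT serum/LIF, Cripto KO serum/LIF, WT F/A and Cripto KO F/A), Hoxd11 (0, 1, 2 and 0) and Hoxd12 with 0 counts throughout. The 39 genes together held 430 counts in WT serum/LIF, 434 in Cripto KO serum/LIF, 679 in WT F/A and 5794 in Cripto KO F/A, or 24.8, 26.7, 44.6 and 368 cpm. The Cripto KO F/A library stood apart from the other 3.

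**Figure D1:**
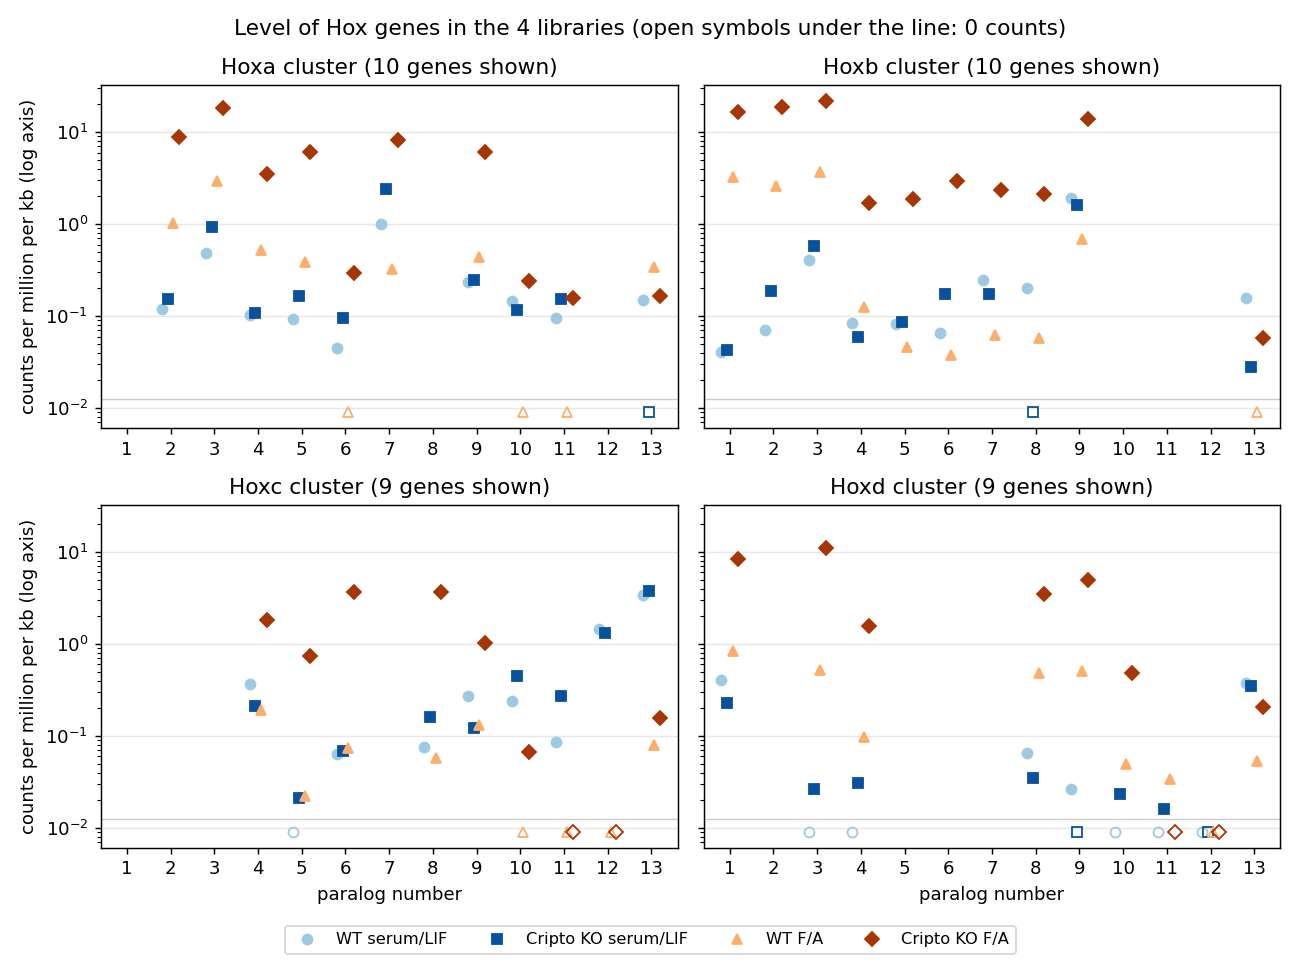
Level of 38 of the 39 Hox genes in the 4 libraries, in cpm per kb of transcript on a log axis, against paralog number, with 1 panel per cluster and open symbols under the line for 0 counts. Genes with low numbers are high in Cripto KO F/A (Hoxb3 at 22.1, Hoxb2 at 18.7) and Hoxc13 is the highest in WT serum/LIF (3.38).

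The comparison of Cripto KO F/A with WT F/A asks how the loss of Cripto alters the cells reached in EpiSC conditions. All 4 clusters were higher in Cripto KO F/A than in WT F/A. The summed Hox counts were 8.26-fold higher (95% interval 7.59 to 8.99), with 6.71-fold for Hoxa (5.86 to 7.70), 8.16-fold for Hoxb (7.20 to 9.28), 18.7-fold for Hoxc (11.2 to 33.6) and 11.8-fold for Hoxd (9.31 to 15.1). Hoxb held the most Hox counts, 306 in WT F/A and 2582 in Cripto KO F/A, and Hoxc the fewest, 16 and 310. The intervals of Hoxc and Hoxd lie above those of Hoxa and Hoxb, although without Hoxd3 the Hoxd ratio was 9.06.

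Among 29 genes tested, 27 were called higher in Cripto KO F/A and 0 lower, where the calls over all 17278 genes tested were 2.74% higher and 4.64% lower. Their median log2 ratio of cpm was 3.31, against -0.05 over all genes tested. Of the 29, 11 were tested only because they exceeded the limit in Cripto KO F/A, and such genes could hardly come out lower. Of the 17 above the limit in both libraries, 17 were called higher, with 2.62% of the 15282 genes of this kind. The 2 genes not called were Hoxa13 with 4 counts in WT F/A and 2 in Cripto KO F/A (2 and 0 in serum/LIF), and Hoxd13 with 2 and 8. The last genes of the clusters, which in the embryo mark digits, genital and tail ends, were thus close to or under the limit in both F/A libraries.

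Within Hoxa, the genes of the head and neck levels carried most counts. Hoxa2, which patterns a pharyngeal arch, had 5, 6, 38 and 336 counts in WT serum/LIF, Cripto KO serum/LIF, WT F/A and Cripto KO F/A and an F/A ratio of 8.56 (5.99 to 12.5). It was already called higher in WT after the move to F/A. Hoxa3, needed for the thymus and parathyroid, had 13, 23, 69 and 440 counts (ratio 6.17, 4.69 to 8.21). Hoxa4 had 2, 2, 9 and 62 counts (6.67, 3.10 to 15.9). Hoxa5, which acts in the lung and the cervical skeleton, had 3, 5, 11 and 180 (15.8, 8.44 to 32.8). Further along the cluster the counts in WT F/A were too few to fix a ratio closely, as for Hoxa7 with 4 and 104 counts in F/A (25.2, 9.26 to 95.8) and Hoxa9 with 5 and 72 (13.9, 5.45 to 45.5). Hoxa10 and Hoxa11 had 0 counts in WT F/A and 6 each in Cripto KO F/A, which is at the limit.

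Hoxb showed a break between Hoxb3 and Hoxb4. Hoxb1 (chromosome 11 from 96227066 to 96229570), a gene of rhombomere identity in the hindbrain, had 1 count in each serum/LIF library, 72 in WT F/A and 374 in Cripto KO F/A, a ratio in F/A of 5.03 (3.81 to 6.69). Hoxb2 had 4, 10, 130 and 970 counts in WT serum/LIF, Cripto KO serum/LIF, WT F/A and Cripto KO F/A (ratio 7.22, 5.94 to 8.83). Hoxb3 had 9, 12, 71 and 444 (6.05, 4.61 to 8.02). These hindbrain genes were at 71 to 130 counts in WT F/A, whereas the next 5 genes were at 1 to 8. Hoxb4, known for the expansion of blood stem cells, had 8 counts in WT F/A and 112 in Cripto KO F/A (13.5, 6.42 to 32.9). Hoxb5, Hoxb6, Hoxb7 and Hoxb8 had 1 or 2 counts in WT F/A and 84, 82, 78 and 38 in Cripto KO F/A. Hoxb6 had the largest ratio of any gene tested in F/A, 79.3, but it rests on 1 count and its interval runs from 13.5 to 3210. Hoxb9 (chromosome 11 from 96132771 to 96137909), a gene of the thoracic skeleton, had 60, 48, 19 and 398 counts (F/A ratio 20.3, 12.6 to 34.4). It was the only Hoxb gene beyond paralog 3 with more than 10 counts in WT F/A. Hoxb13, separated from the rest of the cluster and active at the tail end, had 6, 1, 0 and 2 counts.

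In Hoxc, which has no paralog below 4, all 5 genes tested were called higher in Cripto KO F/A. Hoxc8 (chromosome 15 from 102821053 to 102824698), a gene of the thoracic level, had 3, 6, 2 and 134 counts in WT serum/LIF, Cripto KO serum/LIF, WT F/A and Cripto KO F/A, and an F/A ratio of 64.8 (17.3 to 546). Hoxc4 had 13, 7, 6 and 58 counts (9.35, 3.82 to 27.6). Hoxc5 and Hoxc6 had 1 count each in WT F/A and 34 and 52 in Cripto KO F/A, and Hoxc9 had 3 and 24. The genes from Hoxc10 on had at most 3 counts in WT F/A and at most 6 in Cripto KO F/A, so that the cluster was read from its middle part alone.

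In Hoxd the largest ratio was that of Hoxd3, although its interval overlaps those of Hoxd1, Hoxd8 and Hoxd9 and its counts are less certain for exon overlap. Hoxd3 (chromosome 2 from 74549986 to 74586331), which shapes the first neck vertebrae, had 0, 1, 18 and 398 counts and an F/A ratio of 21.4 (13.2 to 36.8). Hoxd1 had 13, 7, 24 and 246 counts (9.92, 6.37 to 16.1). Hoxd8 had 2, 1, 13 and 96 (7.15, 3.81 to 14.4). Hoxd9 had 1, 0, 17 and 170 (9.68, 5.70 to 17.4). All 4 were present in WT F/A at 13 to 24 counts. Hoxd4, which overlaps Hoxd3, had 3 counts in WT F/A and 50 in Cripto KO F/A, and Hoxd10 had 2 and 20.

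**Figure D2:**
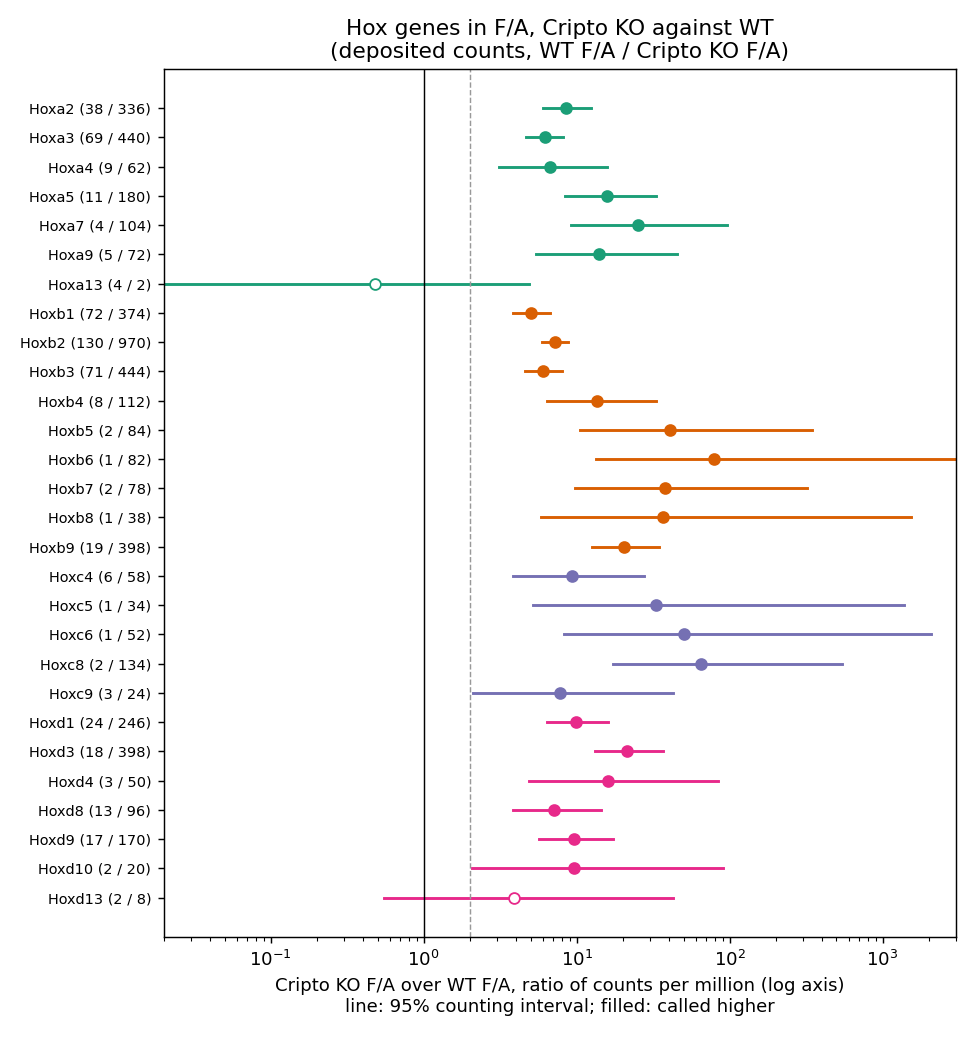
Ratio of Cripto KO F/A to WT F/A in cpm, on a log axis, for 28 of the 29 Hox genes tested, with the deposited counts of both libraries beside each name and the 95% counting interval as a line that may run past the edge. Filled points are genes called higher, and Hoxa13 and Hoxd13 are not called.

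Grouped by paralog number, the middle of the clusters differed more between the F/A libraries than their start. Paralogs 1 to 3 (8 genes) had 558 counts in WT F/A and 3908 in Cripto KO F/A, a ratio of 6.78 (6.17 to 7.46), and paralogs 4 to 9 (19 genes) had 108 and 1834, a ratio of 16.4 (13.4 to 20.2). Paralogs 10 to 13 (12 genes) had 13 and 52 counts, a ratio of 3.87 (1.92 to 8.20). By single group the ratio was 5.51 for paralog 1 (4.73 to 6.42), 10.5 for paralog 4 (6.87 to 16.6), 20.6 for paralog 5 (11.9 to 38.6) and 14.6 for paralog 9 (10.6 to 20.5). Paralog 6 reached 67.7 on 2 counts in WT F/A (18.1 to 570.3), and paralog 13 had 1.94 (0.681 to 5.503). The same split within Hoxa gave 5.88 (5.08 to 6.82) for paralogs 1 to 3 and 14.1 (9.57 to 21.6) for 4 to 9, and within Hoxb 6.34 (5.53 to 7.28) and 23.2 (16.3 to 34.2). In Hoxd the order was the other way, 14.8 (10.7 to 21.0) and 9.27 (6.34 to 13.9), with overlapping intervals, so the difference between paralog groups was seen in Hoxa and Hoxb and not in Hoxd. As shares of all Hox counts, paralogs 4 to 9 made up 15.9% in WT F/A (exact binomial interval 13.2% to 18.9%) and 31.7% in Cripto KO F/A (30.0% to 33.4%).

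**Figure D3:**
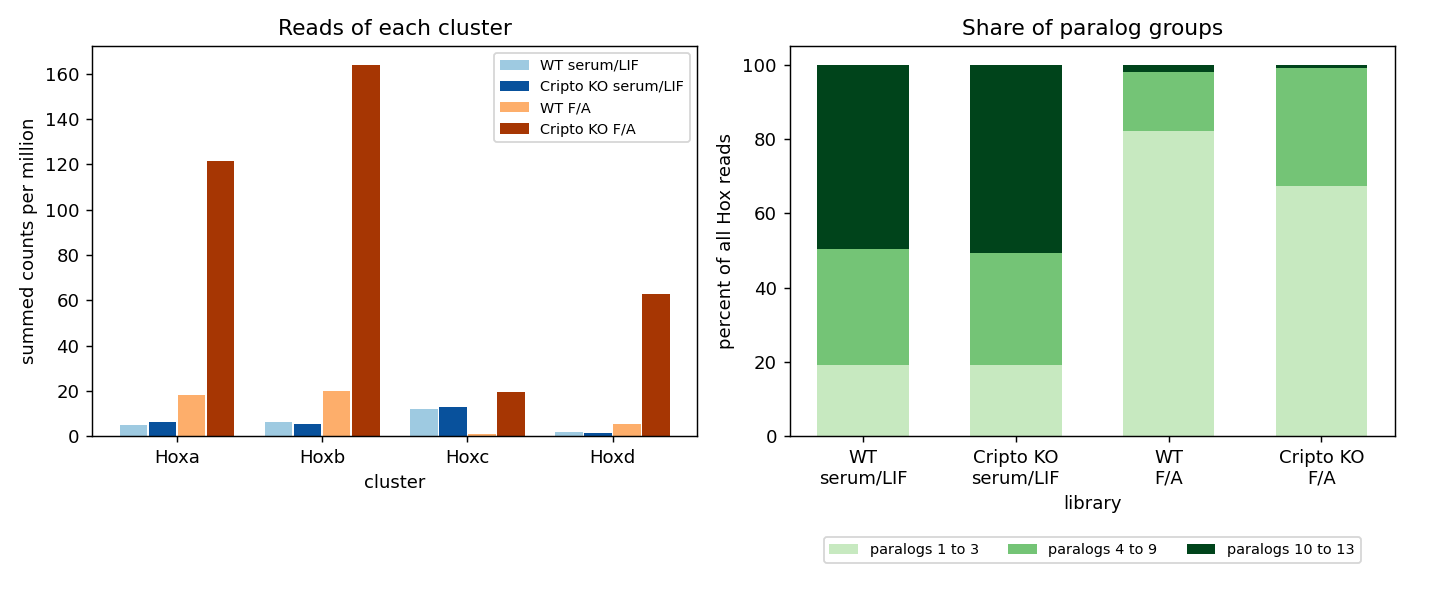
Left, summed cpm of each cluster in the 4 libraries, with bars from 0. Right, percent of all Hox counts held by paralogs 1 to 3, 4 to 9 and 10 to 13. Paralogs 1 to 3 hold 82.2% in WT F/A and 67.4% in Cripto KO F/A, and paralogs 10 to 13 hold 49.5% in WT serum/LIF and 50.7% in Cripto KO serum/LIF.

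The transition from serum/LIF to F/A asks which of these differences arise in each genotype. In WT, genes of paralogs 1 to 3 and a few of 4 to 9 rose and 5 genes of paralogs 9 to 13 fell, while in Cripto KO most genes of paralogs 1 to 9 rose. The summed Hox level rose 1.80-fold in WT (1.59 to 2.03) and 13.8-fold in Cripto KO (12.5 to 15.3). The WT and Cripto KO transitions share no library, and the Cripto KO rise was 7.68 times the WT rise (6.56 to 8.99). In WT, 29 genes were tested, of which 12 were called higher and 5 lower, where the calls over all 19016 genes tested were 20.2% higher and 19.9% lower. Among the 12 were Hoxa2 to Hoxa5, Hoxb1 to Hoxb3, Hoxd1, Hoxd3, Hoxd8 and Hoxd9, and the 5 were Hoxb9, Hoxc10, Hoxc12, Hoxc13 and Hoxd13. Only 10 of the 29 were above the limit in both WT libraries, of which 6 were called higher and 1 lower (Hoxb9), where 19.8% of the 15785 genes of this kind were called higher and 17.1% lower. The other 6 higher calls were among 8 genes above the limit only in F/A and the other 4 lower calls among 11 above it only in serum/LIF, and for such genes the filter all but fixed the direction. In Cripto KO, 33 were tested, 27 called higher and 3 lower (Hoxc10, Hoxc12 and Hoxc13), where 18.0% of 18046 genes were called higher and 16.7% lower. Of the 16 genes above the limit in both Cripto KO libraries, 15 were called higher and 0 lower, with 18.1% and 14.003% of the 14761 genes of this kind. The other 12 higher calls were all 12 genes above the limit only in F/A, and the 3 lower calls were among 5 above it only in serum/LIF, where the direction was likewise all but fixed. The Cripto KO F/A library is shared with the comparison of the F/A cultures above.

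Paralogs 1 to 3 rose in both genotypes, 7.74-fold in WT (6.13 to 9.88) and 48.6-fold in Cripto KO (39.0 to 61.3). The largest rises in WT were those of Hoxb1, from 1 to 72 counts, and Hoxb2, from 4 to 130 (36.9-fold, 14.1 to 138). Paralogs 4 to 9 were at 0.91 of their serum/LIF level in WT (0.70 to 1.18) and rose 14.5-fold in Cripto KO (12.03 to 17.5). Within Hoxb, paralogs 4 to 9 had 85 counts in WT serum/LIF and 33 in WT F/A, a 2.27-fold lower level (1.499 to 3.497), and 67 and 792 in Cripto KO, a 12.2-fold higher level (9.41 to 16.1). Of 26 genes with a fold in both genotypes, the Cripto KO interval lay wholly above the WT one for 12 and wholly below for 0. The intervals overlapped for 14. The share over all genes is not given here, so these counts do not show how unusual the Hox genes are. Hoxb9 was called in opposite directions, with 60 and 19 counts in WT (2.78-fold lower, 1.63 to 4.93) and 48 and 398 in Cripto KO (8.57-fold higher, 6.223 to 11.998). Hoxa7 stood at 14 and 4 counts in WT (ratio 0.32, 0.08 to 1.03) and at 32 and 104 in Cripto KO, where it rose 3.36-fold (2.12 to 5.39).

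**Figure D4:**
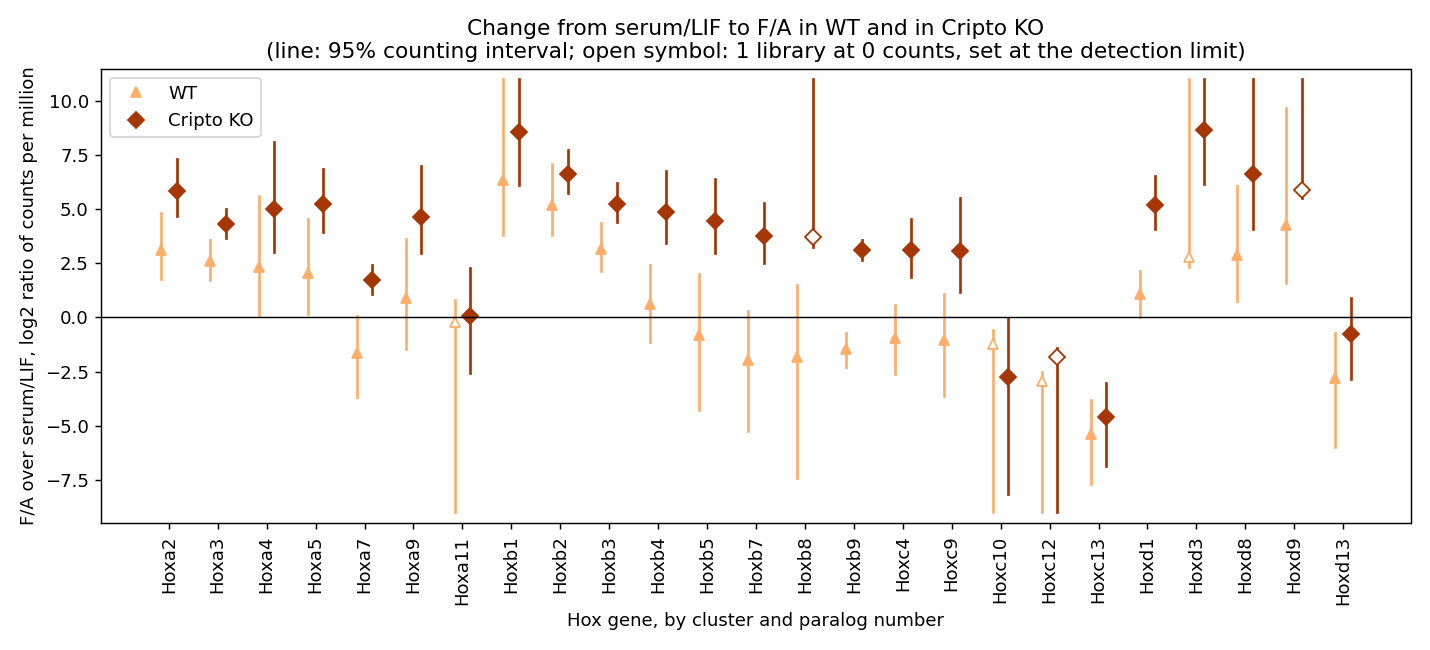
Log2 ratio of F/A to serum/LIF in WT and in Cripto KO for 25 of the 26 Hox genes with a fold in both, with 95% counting intervals, cut short where they leave the plotted range, and open symbols where 1 library had 0 counts. Hoxb9 lies at -1.47 in WT and 3.10 in Cripto KO, and Hoxc13 is below 0 in both.

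In serum/LIF, the posterior end of Hoxc held the most Hox counts in both genotypes. Hoxc13 (chromosome 15 from 102751534 to 102759245), a gene of hair and nail formation, had 144 counts in WT serum/LIF and 149 in Cripto KO serum/LIF, about 1 in 3 of all Hox counts there. Hoxc12 had 26 and 22 and Hoxc10 had 8 and 14. All were nearly absent after 6 days of F/A in both genotypes, with 3 and 6 counts of Hoxc13 in WT F/A and Cripto KO F/A, 0 and 0 of Hoxc12, and 0 and 2 of Hoxc10. Hoxc13 fell 42.2-fold on the way to F/A in WT (14.2 to 207) and 24.0-fold in Cripto KO (8.07 to 118). With its 0 counts in F/A set at the limit, Hoxc12 was 7.62-fold lower in WT and 3.55-fold lower in Cripto KO. The lower ends of the counting intervals were 5.77-fold and 2.65-fold. Hoxd13 had 16 counts in WT serum/LIF and 2 in WT F/A (7.04-fold lower, 1.65 to 63.1), and 14 and 8 in Cripto KO (ratio 0.59, 0.14 to 1.88). The Hoxc sum fell 11.3-fold in the WT transition (6.78 to 20.1) and was 1.51 of its serum/LIF level in Cripto KO (1.22 to 1.87). Without Hoxc13 the ratios of F/A to serum/LIF were 0.24 in WT and 4.98 in Cripto KO.

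In serum/LIF, the Cripto KO to WT ratio of the summed Hox counts was 1.07 (0.94 to 1.23). Of 25 genes tested, 1 was called higher and 0 lower, where 1.14% of 18228 genes were called higher and 2.99% lower. That gene was Hoxa7, of the thoracic level, with 14 counts in WT and 32 in Cripto KO (2.43-fold, 1.26 to 4.94). With a 3-fold threshold it was not called. The intervals of Hoxc13 (0.87 to 1.40) and Hoxb9 (0.57 to 1.27) lay within 2-fold in both directions. Those of the other genes not called took in a 2-fold difference in at least 1 direction, so that such differences could be missed at this depth.

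Levels can be set against each other only per length, here as cpm per kb of the median annotated transcript. In Cripto KO F/A high levels were those of Hoxb3 (22.1, exact Poisson interval 19.3 to 25.2), Hoxb2 (18.7, 17.0 to 20.4), Hoxa3 (18.2, 15.9 to 20.8), Hoxb1 (16.6, 14.3 to 19.1) and Hoxb9 (13.95, 12.1 to 16.03). Each of these overlaps its neighbour in the order. In WT F/A, Hoxb3 (3.65, 2.85 to 4.605), Hoxb1 (3.30, 2.58 to 4.15), Hoxa3 (2.95, 2.30 to 3.74) and Hoxb2 (2.58, 2.16 to 3.07) were high, and Hoxa2 followed at 1.03 (0.73 to 1.41). The 5 highest levels were those of paralogs 1 to 3 in both F/A libraries. Hoxc13 led in serum/LIF, at 3.38 (2.85 to 3.98) in WT and 3.72 (3.15 to 4.37) in Cripto KO. The next gene was Hoxb9 in WT (1.91, 1.46 to 2.46) and Hoxa7 in Cripto KO (2.44, 1.67 to 3.44), whose interval overlaps that of Hoxc13.

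Along the clusters, Spearman's rho between paralog number and level per kb over the 38 genes with a count was -0.67 in WT F/A and -0.78 in Cripto KO F/A, and 0.14 and -0.03 in WT and Cripto KO serum/LIF. The genes of a library share its depth and are not independent. By cluster, rho in Cripto KO F/A was -0.84 for Hoxa (11 genes), -0.58 for Hoxb (10), -0.69 for Hoxc (9) and -0.86 for Hoxd (8). Hoxb9 stood out of the order in Hoxb, since its 13.95 exceeded every level from Hoxb4 to Hoxb8 (1.71 to 2.98). In Hoxc, rho went from 0.58 in WT serum/LIF and 0.80 in Cripto KO serum/LIF to -0.42 and -0.69 in F/A. Only 1 of the 9 Hoxc genes was above the limit in WT F/A, so -0.42 ranks mostly counts at or under it. For the log2 ratio of the Cripto KO transition in Hoxb, rho was -1 over 9 genes, from 8.59 for Hoxb1 to 3.10 for Hoxb9, where Hoxb1 rests on 1 count and Hoxb8 on 0 counts in serum/LIF. Over all genes, rho of the paralog number with the log2 ratio was -0.70 in the Cripto KO transition (33 genes), -0.62 in the WT transition (29) and 0.16 between the F/A libraries (29).

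Other genes annotated within the clusters, mostly long noncoding and antisense transcripts, were also higher in Cripto KO F/A. Of 32 such genes, 18 had a count and 13 were tested in F/A, of which 12 were called higher and 0 lower. Over all genes tested in F/A, 2.74% were called higher and 4.64% lower. Some of the 13, such as 2700086A05Rik and 1700109F18Rik (0 counts in WT F/A), were tested only because they exceeded the limit in Cripto KO F/A. Such genes could hardly come out lower, and the calls among genes above the limit in both libraries are not given here. Hoxb3os, antisense to Hoxb2 and Hoxb3, had 21 counts in WT serum/LIF, 20 in Cripto KO serum/LIF, 244 in WT F/A and 1444 in Cripto KO F/A (F/A ratio 5.73, 4.95 to 6.65). 5730446D14Rik, in Hoxa, had 6, 2, 33 and 378 (11.1, 7.63 to 16.6). 2700086A05Rik, also in Hoxa, had 7, 6, 3 and 120. Gm53, between Hoxb9 and Hoxb13, was the tested gene not called in F/A, with 260, 138, 8 and 22 counts. The 6 microRNA genes of the clusters, such as Mir10a and Mir196b, had 0 counts. Where noncoding and Hox exons overlap, as for Hoxb3os, reads of the 2 strands cannot be told apart without the strand.

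The genes just outside the clusters differed less. Of 13 protein-coding genes within 150000 bases, 8 were tested in F/A. The calls over all genes tested were 2.74% higher and 4.64% lower. Of the 8, 1 was called higher and 0 lower. This was Skap2, beside the Hoxa cluster, with 263 counts in WT F/A and 602 in Cripto KO F/A (2.21-fold, 1.87 to 2.62), and 855 and 783 in serum/LIF. Evx1, a homeobox gene of the posterior streak at the other end of Hoxa, had 3, 2, 154 and 180 counts in WT serum/LIF, Cripto KO serum/LIF, WT F/A and Cripto KO F/A and an F/A ratio of 1.13 (0.86 to 1.48). Smug1 beside Hoxc had 255 and 260 in F/A, and Lnp beside Hoxd 567 and 470. The wider list of 21 neighbour genes had 17 tested in F/A, with Skap2 as the 1 called.

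Known regulators of Hox genes were mixed. Of 20 tested in F/A, 4 were called higher and 2 lower in Cripto KO, against 2.74% and 4.64% of all genes tested. Cdx2, a homeobox activator of posterior Hox genes, had 2 counts in WT serum/LIF, 1 in Cripto KO serum/LIF, 104 in WT F/A and 674 in Cripto KO F/A (F/A ratio 6.27, 5.02 to 7.89). Aldh1a2, which makes retinoic acid, had 27, 12, 319 and 1080 (3.28, 2.85 to 3.77). Cyp26a1, which degrades retinoic acid, went the other way, with 4, 2, 4821 and 1740 (ratio 0.35, 0.32 to 0.38). Cdx4 had 2 and 14 counts in F/A and Wnt3a had 6 and 28, both called higher, although Cdx4 was above the limit only in Cripto KO F/A. Kmt2a, a methyltransferase that keeps Hox genes active, had 4773 and 2452 counts and was called lower. Its ratio lay just past the 2-fold threshold, so this call depends on the scaling. The Polycomb genes Ezh2, Eed, Suz12, Rnf2 and Bmi1 were not called in F/A, with ratios of 0.65 to 1.25. Eed fell from 5722 to 1034 counts in the WT transition and from 5242 to 944 in that of Cripto KO.

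Genes for proteins that bind DNA together with Hox proteins were 9, all tested in F/A. Calls over all genes tested were 2.74% higher and 4.64% lower. Of the 9, 2 were called higher in Cripto KO F/A and 0 lower. They were Meis1, with 17, 15, 92 and 662 counts (F/A ratio 6.96, 5.51 to 8.87), and Meis2, with 36, 44, 371 and 1616 (4.21, 3.72 to 4.78). Pbx2 had an F/A ratio of 1.39 (1.29 to 1.51) and Pbx3 of 1.26 (1.11 to 1.44), and neither was called. Of the ParaHox genes, sisters of the Hox genes outside the clusters, only Gsx1, Gsx2 and Pdx1 were listed here. These had at most 4 counts in any library.

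Markers of several cell types differed between the F/A libraries, in both directions. Of all genes tested between these libraries, 2.74% were called higher in Cripto KO F/A and 4.64% lower. In F/A, 4 of 8 genes of lateral and extraembryonic mesoderm (Hand1, Hand2, Foxf1 and Msx2) were called higher in Cripto KO and 0 lower, with a summed level of 222 cpm in WT F/A and 490 in Cripto KO F/A and none of the list at 0. Hand1 had 196 and 1730 counts in F/A and Hand2 had 81 and 584. Of 8 genes of posterior and paraxial mesoderm, 3 were called higher (Meox1, Foxc2 and Tcf15) and 2 lower (Tbx6 and Mixl1), with sums of 608 and 474 cpm. Of 11 fibroblast genes, 4 were called higher (Col1a1, Col3a1, Dcn and Twist2), with 137 and 298 cpm. Of 9 tested trophoblast genes, a list that shares Hand1 with the mesoderm list and Cdx2 with the regulators, 3 were called higher (Cdx2, Hand1 and Plac1) and Eomes lower, with 2460 and 2679 cpm, and Elf5, a defining marker, had 2 and 0 counts. Of 4 neural genes tested, 0 were called (33.2 and 43.1 cpm), and of 5 naive pluripotency genes tested, 0 were called (28.9 and 45.5 cpm). Of 6 epiblast and EpiSC genes, 4 were called lower (Fgf5, Otx2, Nanog and Cer1), with 557 and 216 cpm, and the F/A cultures labelled EpiSC thus differed in the markers of that label. Fgf5 had 2206 counts in WT F/A and 394 in Cripto KO F/A. With the fall of Hoxc12 and Hoxc13 from serum/LIF to F/A, the fibroblast genes Dcn (328 counts in WT serum/LIF, 417 in Cripto KO serum/LIF, 5 in WT F/A and 18 in Cripto KO F/A), Thy1 (466, 349, 18 and 28) and S100a4 (255, 255, 14 and 20) and all 6 naive pluripotency genes fell in both genotypes. Among all genes tested, 20.2% were called higher and 19.9% lower in the WT transition, and 18.0% and 16.7% in that of Cripto KO. Over the whole fibroblast list, 3 genes were called lower and 4 higher of 11 in the WT transition. In that of Cripto KO, 3 were called lower and 6 higher of 10. The list had 137 and 146 cpm in WT and Cripto KO serum/LIF. The part of these cell types in the Hox values was not tested.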

How the data were processed

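Paired-end reads of 4 libraries were aligned by the authors with TopHat2 2.0.13 to mm9 (NCBIM37) and the raw counts per gene were deposited as made by HTSeq 0.6.1p1 with Ensembl 67. The strand option is not given in the sources used here. The authors also deposited a signal, the quantile-normalized counts of 15462 genes kept by a filter on low expression, used here as an alternative only. Of the IDs, 98.9% were named from Ensembl 65 of the same build, and 0 columns lacked a sample. The authors' probabilities rest on simulated replicates and were not used. Ratios of cpm were computed with Clopper-Pearson intervals (scipy 1.17.1), and 0 counts were set at the detection limit. Other scalings came from edgeR 4.0.16 and DESeq2 1.42.0. The comparison was run on simulated counts with known folds, which held counting error only and no variation between cultures or clones. The Hox genes given in full are the 3 with the most counts in each cluster, those called in the WT transition and the first and last of each cluster, besides others set out as ranges or beside them. The members and lists were chosen with earlier results of these data known. Prac1, Hotair, Hottip, Hotairm1 and Sox1 were not analysed here. Values of 1 Hox gene and 1 partner gene are not reported here singly, and both remain in counts and sums.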

Additional observations from a re-analysis of the deposited data

Results flagged for a closer look

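Hoxb9 changed in opposite directions in the 2 transitions, with a log2 ratio of F/A to serum/LIF of -1.47 in WT (60 and 19 counts) and 3.10 in Cripto KO (48 and 398 counts). With 1 library for each condition, the difference between the genotypes was not tested. Outliers within a group could not be looked for, since no condition has 4 libraries.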

How the results depend on the processing

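With TMM or DESeq2 factors, all counts of calls, medians and cluster sums of the Hox genes stayed within 1.5 times or within their intervals. So did the ratios of the Hox genes named. Between the F/A libraries, 27 genes were called higher under both factors, the 3-fold threshold, counts not divided and the quantile-normalized values, and 24 among genes with a mean of at least 10 counts. With 1 added to every cpm, the median log2 ratio went to 2.37 from 3.31 in F/A and to 2.23 from 4.53 in the Cripto KO transition, since low levels are drawn together by construction. With the quantile-normalized values, from which the filter removed 11 genes, those called lower were 1 in the Cripto KO transition and 2 in WT and those called higher in serum/LIF were 2, and the sums in the transitions were 1.89 for Hoxc and 101 for Hoxd in Cripto KO and 6.71 for Hoxd in WT. The 3-fold threshold left 3 genes lower in the WT transition and 0 higher in serum/LIF. Without the gene with the most counts, the F/A ratio was 8.39 for Hoxa and 9.06 for Hoxd; the Cripto KO transition was 15.3 for Hoxa, 20.6 for Hoxb, 4.98 for Hoxc and 24.4 for Hoxd; the WT transition was 1.98 for Hoxb and 0.24 for Hoxc; and the serum/LIF ratio was 1.71 for Hoxa. With the longest transcript, rho was -0.59 in WT serum/LIF and -0.61 in Cripto KO serum/LIF for Hoxa and -0.73 in Cripto KO F/A for Hoxb. No called value changed direction. The Hoxb sum in serum/LIF, whose interval spans 1, had a Cripto KO to WT ratio of 0.92 and of 1.08 with the quantile-normalized values. Leaving out a replicate was not possible, and depth limits the genes with few counts in WT F/A. No paired analysis was possible because each condition has 1 library.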
